A study of Mus musculus with 10 samples.

Results

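Phospholipase A2 genes were followed in mouse intestinal tissue that did or did not overexpress human ITGB6, the integrin β6 subunit. The 8 genes were Pla2g4c, Pla2g4a, Pla2g4f, Pla2g5, Pla2g10, Pla2g12a, Pla2g6 and Pla2g15, out of 19456 genes listed in at least 1 library. They were taken by symbol from the deposited table of each library. Pla2g4c led the choice because its level was high in untreated transgenic tissue and low after dextran sulfate sodium (DSS). Its levels in the 4 groups are therefore a description with no test, and so are the comparisons of the other 7 genes that share that contrast. All 8 genes were listed in all 10 libraries, and all 8 were among the 14072 genes that passed the filter on low counts.

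The study collected intestine from ITGB6-overexpressing transgenic mice (TG) and wild-type C57BL/6 mice (WT), untreated or in a model of intestinal fibrosis set up with 2.5% DSS given by mouth. DSS is a polymer that injures the gut lining. The groups were TG after DSS (2 libraries), WT after DSS (2), untreated TG (3) and untreated WT (3), with poly-A RNA sequenced on a BGISEQ-500. The promoter that drives the transgene, the number of founder lines, the segment of intestine, the days of DSS and the ages are not given in the sources used here. The labels do not say that replicates were separate animals, and a p-value here speaks only of the scatter among these 10 libraries, which may be technical.

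Phospholipase A2 enzymes cut the fatty acid at the middle position of a membrane phospholipid, which releases a free fatty acid and a lysophospholipid. When that fatty acid is arachidonic acid, cyclooxygenases turn it into prostaglandins and 5-lipoxygenase turns it into leukotrienes. The family has cytosolic enzymes (the Pla2g4 genes), secreted enzymes (Pla2g5, Pla2g10, Pla2g12a), a calcium-independent enzyme (Pla2g6) and a lysosomal enzyme (Pla2g15). In the gut, prostaglandins are known for their part in mucus secretion, repair of the epithelium and inflammation.

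The start regions of the genes whose levels differed most between groups are shown here, as RefSeq gives them on GRCm38.p6, from 250 bases before the start to 50 after it. Capitals mark CCAAT on either strand, so it reads as ATTGG on the other one. The table holds 2 start regions of Pla2g4c, on the plus strand of chromosome 7, at chr7:13325417-13325716 and chr7:13329072-13329371. The annotated span of the gene begins upstream of both. The first of them holds CCAAT at 232 and 23 bases before the start, and the second holds none.
Pla2g4c, first region: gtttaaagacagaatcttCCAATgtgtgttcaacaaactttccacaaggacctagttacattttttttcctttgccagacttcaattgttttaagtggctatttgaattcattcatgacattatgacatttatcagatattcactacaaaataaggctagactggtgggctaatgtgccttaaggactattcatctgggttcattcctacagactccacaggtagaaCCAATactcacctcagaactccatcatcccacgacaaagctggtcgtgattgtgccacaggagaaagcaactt
Pla2g4c, second region: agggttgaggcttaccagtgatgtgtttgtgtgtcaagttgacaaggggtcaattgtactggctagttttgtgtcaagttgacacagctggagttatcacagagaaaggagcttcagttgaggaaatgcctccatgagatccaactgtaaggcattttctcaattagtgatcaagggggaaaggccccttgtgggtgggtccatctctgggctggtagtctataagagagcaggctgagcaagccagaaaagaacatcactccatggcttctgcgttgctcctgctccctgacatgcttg
The length deposited for Pla2g4c was 3390 bases in 7 of 10 libraries, which is the annotated length of the GENCODE transcript that begins at the start in the first region, and 3374 bases in the second WT library after DSS, the shortest. Pla2g5 lies on the minus strand of chromosome 4, and its deposited length was 1982 bases in 9 of 10 libraries. The closer of its 2 GENCODE transcripts, with 1976 bases, has its first base at 138819255, and the region shown is chr4:138819208-138819507. It holds CCAAT 144 bases before the start.
Pla2g5, short transcript: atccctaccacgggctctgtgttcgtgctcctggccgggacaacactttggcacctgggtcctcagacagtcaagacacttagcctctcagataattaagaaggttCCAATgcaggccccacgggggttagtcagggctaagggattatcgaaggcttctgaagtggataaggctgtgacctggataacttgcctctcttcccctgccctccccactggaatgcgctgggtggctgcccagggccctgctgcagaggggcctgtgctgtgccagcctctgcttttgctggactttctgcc
Pla2g4f lies on the minus strand of chromosome 2, with the region chr2:120314116-120314415, and holds no CCAAT there.
Pla2g4f: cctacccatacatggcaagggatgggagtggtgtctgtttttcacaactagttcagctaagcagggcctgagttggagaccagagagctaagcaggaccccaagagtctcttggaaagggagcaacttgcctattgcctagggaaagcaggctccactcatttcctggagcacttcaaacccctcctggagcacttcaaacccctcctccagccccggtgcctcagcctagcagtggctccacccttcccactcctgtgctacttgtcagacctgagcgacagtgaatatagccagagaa
RefSeq gave 11 start regions for the 8 genes, and 8 of these 11 held CCAAT, against 37.4% of 32851 start regions of the same length in the table. TATAAA was in 1 of the 11 (13.6% of all), GGGCGG in 3 (35.7% of all), and TGANTCA and TTCNNNGAA, where N is any base, in 0 (7.81% and 8.30% of all). All motifs were searched on both strands. A match is a description of the letters and not a site of binding.

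Library totals lay between 15393859 and 18284704 expected counts. Human ITGB6 stood at 2200 and 2452 CPM (counts scaled to library size) in TG after DSS, 0.709 and 1.13 CPM in WT after DSS, 3630 to 3912 CPM in untreated TG and 0.117 to 0.123 CPM in untreated WT, so the labels of genotype hold. Xist, which female cells express, was at 307 to 739 CPM in the 4 libraries after DSS and at 0 to 0.416 CPM in the 6 untreated ones, and Kdm5d, a Y-linked gene, was at 0 in all 4 libraries after DSS and at 26.6 to 44.2 CPM in the untreated ones. DSS and sex therefore cannot be told apart in any comparison of DSS with untreated tissue, nor in the difference between the DSS effects. The first untreated TG library stood apart from its group: Ptprc, the pan-leukocyte gene, was at 8.94 CPM there and at 56.8 and 79.5 CPM in the other untreated TG libraries. Genes of epithelium summed to 14108 to 19763 CPM in every library. The 6 smooth muscle markers summed to 6.53 to 9.77 CPM. Of these, Tagln was at 5.83 to 8.19 CPM, and Acta2 and Myh11 were at or under 1.25 CPM. By these markers the libraries hold mostly mucosa.

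Pla2g4c was high in untreated TG tissue and nearly absent after DSS in both genotypes. This gene encodes the cytosolic phospholipase A2 that, in humans, lacks the calcium-binding domain of its relatives. It lies at chr7:13311507-13360674 (GRCm38.p6). Its level was 1.93 and 1.58 CPM in TG after DSS, 3.66 and 3.24 CPM in WT after DSS, 334, 291 and 385 CPM in untreated TG, and 50.1, 24.7 and 34.1 CPM in untreated WT. The 4 groups did not overlap in any pair, and untreated TG was the highest and TG after DSS the lowest. Untreated TG averaged 337 ± 46.7 CPM and untreated WT 36.3 ± 12.8 CPM (SD, n = 3 each), which is 9.27-fold higher in TG, or 3.21 ± 0.23 on the log2 scale (SE). After DSS the order was turned round, at low counts (33 and 27 in TG, 62 and 60 in WT). TG averaged 1.76 ± 0.249 CPM and WT 3.45 ± 0.299 CPM (SD, n = 2 each), a log2 fold change of -0.97 ± 0.38.

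**Figure D1:**
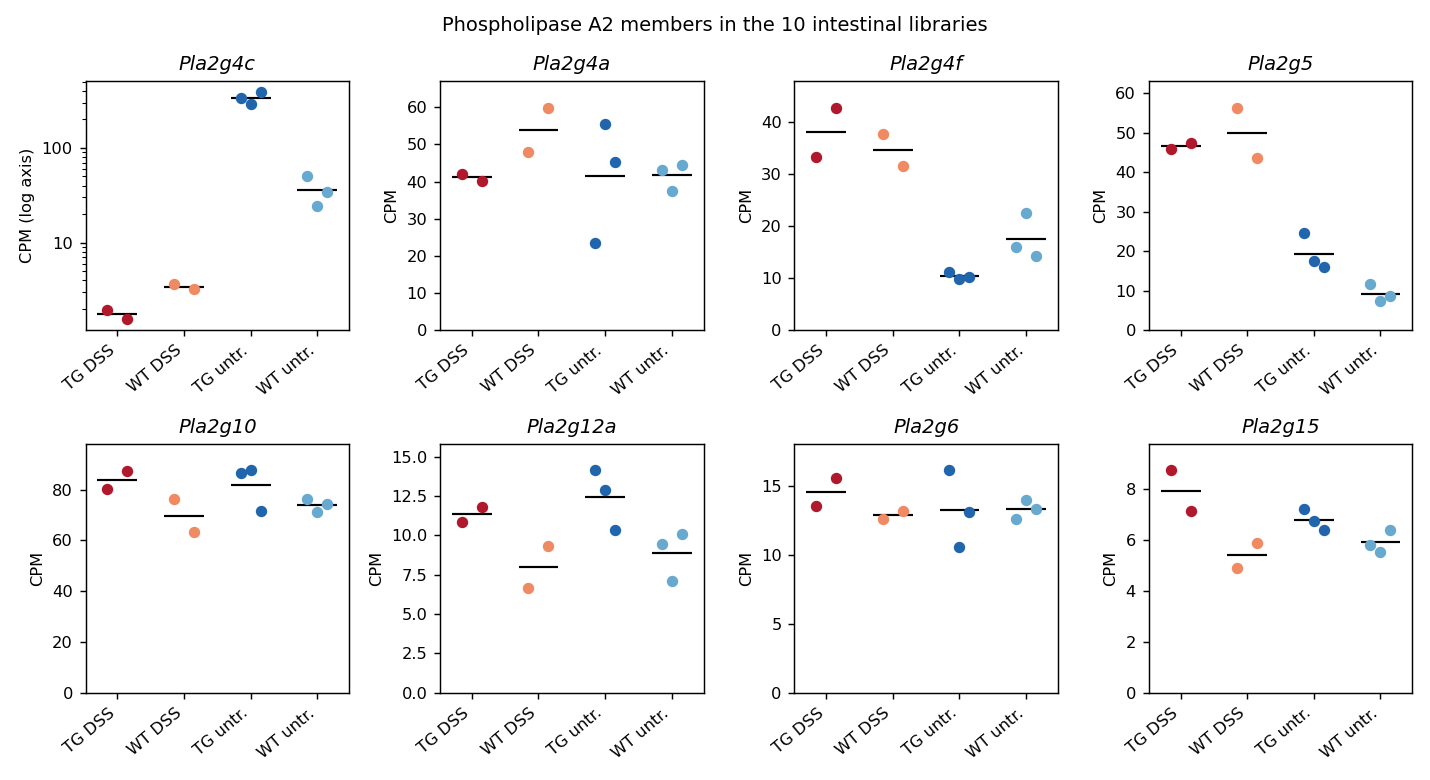
Level of each of the 8 phospholipase A2 genes in CPM (y axis) in the 10 libraries, grouped on the x axis as TG after DSS, WT after DSS, untreated TG and untreated WT; points are libraries and lines are group means. Pla2g4c, on a log axis, ranges from 1.58 CPM in a TG library after DSS to 385 CPM in an untreated TG library, while the other 7, on linear axes from 0, stay within a much narrower range.

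Against untreated tissue of the same genotype, Pla2g4c after DSS was 191-fold lower in TG (log2 fold change -7.58 ± 0.36) and 10.5-fold lower in WT (-3.39 ± 0.30). The difference between those 2 log2 fold changes was -4.18 ± 0.44. With 1 library left out at a time, the log2 fold change lay between -7.73 and -7.44 in TG and between -3.62 and -3.11 in WT. For TG against WT after DSS it lay between -1.12 and -0.83. These ranges are a description, since the gene was chosen for this pattern and each group after DSS has only 2 libraries. In RNA from whole tissue, fewer cells of a type and less RNA per cell cannot be told apart. The neighbouring gene Lig1, which encodes DNA ligase I, was above its untreated group after DSS in both genotypes, where Pla2g4c was below. It was at 63.7 and 86.7 CPM in TG after DSS, 53.4 and 117 CPM in WT after DSS, 49.7 to 58.9 CPM in untreated TG and 33.1 to 40.7 CPM in untreated WT. On the other side Cabp5 was at or under 0.118 CPM in every library.

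Per length of transcript, Pla2g4c was first of the 8 genes in untreated TG and last in both groups after DSS. It had 0.55 and 0.43 FPKM (fragments scaled to transcript length and library size) in TG after DSS, 1.05 and 0.98 FPKM in WT after DSS, 94.7, 86.9 and 110 FPKM in untreated TG, and 15.2, 7.55 and 10.6 FPKM in untreated WT. Its share of the summed FPKM of the 8 genes was 0.283 to 0.377% in TG after DSS, 0.706 to 0.710% in WT after DSS, 37.6 to 48.8% in untreated TG and 6.03 to 10.8% in untreated WT. The sum itself was 146 to 152 FPKM in TG after DSS, 139 to 148 FPKM in WT after DSS, 226 to 231 FPKM in untreated TG and 125 to 141 FPKM in untreated WT. Pla2g10 was the highest of the 8 in every group except untreated TG, where Pla2g4c, at 97.3 ± 11.8 FPKM, and Pla2g10, at 89.0 ± 10.9 FPKM (SD, n = 3 each), had libraries that overlapped.

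**Figure D2:**
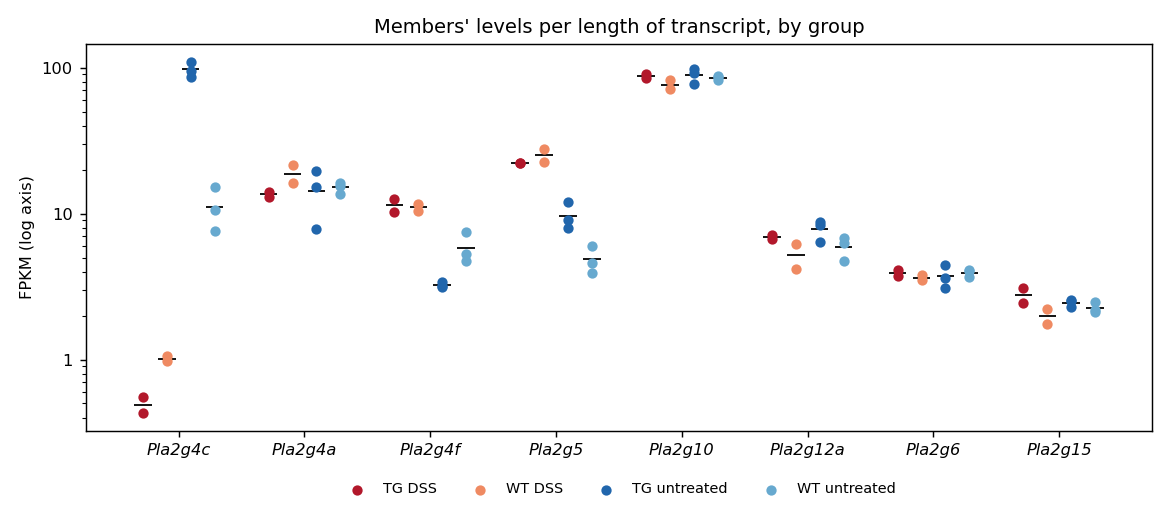
Level per length of transcript of the 8 genes, in FPKM on a log axis, with 1 point per library and a line at each group mean, in the order TG after DSS, WT after DSS, untreated TG and untreated WT within each gene. Pla2g4c runs from 0.43 to 110 FPKM, and Pla2g10 stays between 71.2 and 98.2 FPKM.

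Among the genes whose log2 CPM was most like that of Pla2g4c over the 10 libraries, of 12733 tested genes with a mean of at least 1 CPM, were Ang3, Itln1, Vstm2l, Mptx1, Fn1, Rbsn and Ang4, with Pearson's r of 0.967 to 0.986. Those libraries share 4 groups, so these correlations describe likeness between group levels and carry no test. Ang4, an antimicrobial ribonuclease of the gut epithelium, was at 37.7 and 16.0 CPM in TG after DSS, 11.1 and 13.0 CPM in WT after DSS, 1155 to 1245 CPM in untreated TG, and 367, 116 and 215 CPM in untreated WT. Itln1, an intestinal lectin, was at 1.23 and 1.05 CPM in TG after DSS, 1.59 and 0.702 CPM in WT after DSS, 46.6, 38.4 and 39.0 CPM in untreated TG, and 16.6, 6.13 and 9.16 CPM in untreated WT. Mptx1, a mucosal pentraxin, was at 93.4 to 330 CPM in the 4 libraries after DSS, 3403 to 4954 CPM in untreated TG and 749 to 1691 CPM in untreated WT. In each of these 3 genes untreated TG was highest and the libraries after DSS lowest, without overlap. Within untreated WT, Pla2g4c, Ang4, Itln1 and Mptx1 were all highest in the first library and lowest in the second. The summed goblet cell markers given below had that order too, while Fn1 and Vstm2l were highest in the third library. In untreated TG the order was not shared. There Pla2g4c was highest in the third library, Mptx1 in the second, and Ang4 and Itln1 in the first.

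**Figure D3:**
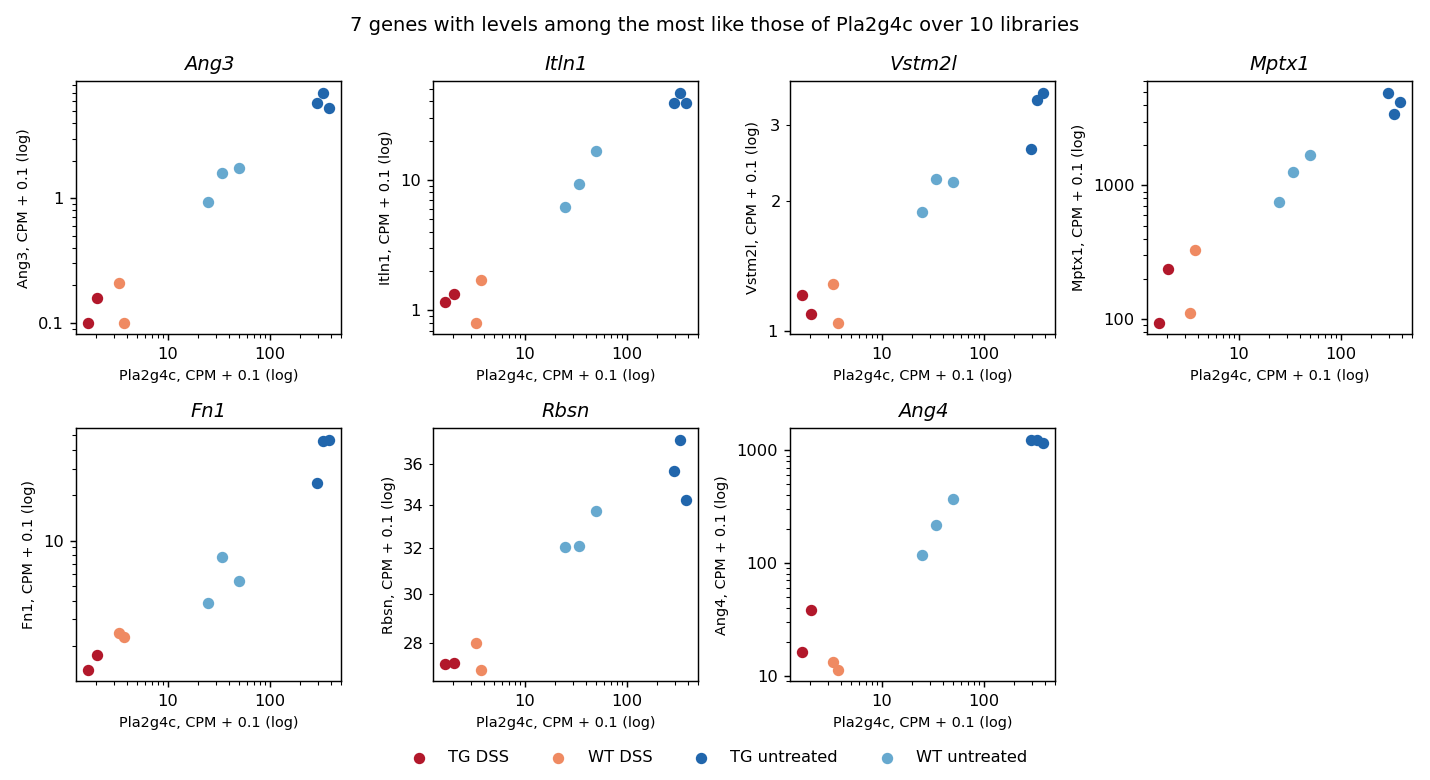
CPM of 7 genes among those most like Pla2g4c (y axes) against CPM of Pla2g4c (x axes) in the 10 libraries, both as CPM + 0.1 on log axes, coloured by group. The untreated TG libraries sit at the upper right, the untreated WT libraries between, and all libraries after DSS at the lower left.

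Ang4 and Itln1 are also on the list of 7 Paneth cell markers, so that list was set beside Pla2g4c. Its summed level was 26.5 to 49.8 CPM in TG and 17.5 to 18.9 CPM in WT after DSS. In untreated tissue it was 1256 to 1368 CPM in TG and 128 to 400 CPM in WT. Ang4 alone held most of that sum in every library. Pnliprp2 was at 1.18 to 5.68 CPM after DSS, 34.8 to 73.7 CPM in untreated TG and 2.80 to 8.91 CPM in untreated WT. Mmp7 stayed between 0.892 and 2.99 CPM in all libraries. Since the list was taken up for genes that are like Pla2g4c, these sums are a description with no test. The defining Paneth genes did not share this. Lyz1 (Paneth lysozyme) stayed between 0.834 and 3.11 CPM in all libraries, and the defensin genes Defa17 and Defa24 were at 0 in 8 and 6 of 10 libraries and at most at 1.23 CPM. The 8 goblet cell markers summed to 26707 to 33511 CPM in TG after DSS, 13640 to 21907 CPM in WT after DSS, 28370 to 39332 CPM in untreated TG and 9401 to 24144 CPM in untreated WT, and 3 of 8 (Spink4, Agr2 and Spdef) rose in untreated TG (2.26% of all genes were called higher there), or 1 without the second or the third untreated WT library and 2 without the second untreated TG library. The 5 erythrocyte markers summed to 61.6 to 203 CPM in TG after DSS, 9.45 to 12.6 CPM in WT after DSS, 381 to 626 CPM in untreated TG and 174 to 309 CPM in untreated WT. The 7 fibroblast markers summed to 26.5 to 26.9 CPM in TG after DSS, 27.3 to 28.1 CPM in WT after DSS, 44.9, 130 and 131 CPM in untreated TG and 40.9 to 64.2 CPM in untreated WT. Of the 7, Thy1 went the other way in untreated tissue, at 5.19, 11.5 and 14.4 CPM in TG and 20.5, 36.4 and 18.9 CPM in WT. By edgeR, Col1a1, Col1a2 and Col3a1 were called higher in untreated TG than in untreated WT, where 2.26% of all genes were. The same 3 were called lower in TG after DSS, where 2.15% of all genes were. Without the first untreated TG library 5 were called in each comparison. The count in untreated tissue was 0 without either of the other untreated TG libraries or the first or the second untreated WT library, 1 without the third untreated WT library, and 2 without either TG library after DSS. The count in TG after DSS was 0 without either TG library after DSS and 2 without the second or the third untreated TG library. Tuft cell markers summed to 18.3 to 21.3 CPM in TG after DSS, 13.9 to 20.1 CPM in WT after DSS, 32.1 to 39.2 CPM in untreated TG and 29.5 to 37.0 CPM in untreated WT. Leukocyte markers summed to 90.0 to 94.8 CPM in TG after DSS, 96.7 to 116 CPM in WT after DSS, 85.9 to 314 CPM in untreated TG and 240 to 454 CPM in untreated WT. The part of any of these marker lists in the level of Pla2g4c was not tested.

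Of the other cytosolic genes, Pla2g4f ran opposite to Pla2g4c and Pla2g4a did not follow it. Pla2g4f, which encodes cytosolic phospholipase A2 zeta, was at 33.3 and 42.8 CPM in TG after DSS, 37.8 and 31.6 CPM in WT after DSS, 11.1, 9.86 and 10.2 CPM in untreated TG, and 16.1, 22.5 and 14.2 CPM in untreated WT. Both groups after DSS were above both untreated groups, and untreated TG was below untreated WT, with no overlap. In WT, Pla2g4f rose 1.97-fold after DSS, a log2 fold change of 0.98 ± 0.20 with adjusted p = 0.0085 (edgeR), and kept this call in all 20 alternative fits. In TG the log2 fold change after DSS was 1.87 ± 0.20, in untreated TG against WT it was -0.76 ± 0.18, and in TG against WT after DSS it was 0.13 ± 0.21, all as descriptions. Over the 10 libraries its Pearson's r with Pla2g4c was -0.975, the second lowest of the 12733 genes.

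Pla2g4a encodes the calcium-dependent cytosolic enzyme that prefers arachidonic acid. It was at 42.1 and 40.1 CPM in TG after DSS, 48.1 and 59.9 CPM in WT after DSS, 23.4, 55.5 and 45.1 CPM in untreated TG, and 43.1, 37.5 and 44.5 CPM in untreated WT. The low value was that of the first untreated TG library, which also had the low Ptprc, and the untreated groups overlapped. TG against WT gave a log2 fold change of -0.01 ± 0.25 in untreated tissue, and 0.27 without that library. DSS against untreated in TG gave -0.01 ± 0.28, and -0.29 without it. After DSS it was -0.39 ± 0.31, with both TG libraries below both WT libraries. In WT, DSS against untreated gave 0.37 ± 0.28 (adjusted p = 0.388, edgeR).

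Among the secreted enzymes, Pla2g5 was higher after DSS in both genotypes and higher in untreated TG than in untreated WT. Pla2g5 encodes the group V enzyme, known in mice from macrophages, heart and other tissues. It was at 45.9 and 47.4 CPM in TG after DSS, 56.3 and 43.6 CPM in WT after DSS, 24.5, 17.5 and 16.1 CPM in untreated TG, and 11.5, 7.44 and 8.67 CPM in untreated WT. The 2 groups after DSS overlapped each other, and each stood above its untreated group. In WT, Pla2g5 rose 5.41-fold after DSS, with a log2 fold change of 2.44 ± 0.22 and adjusted p = 0.000154 (edgeR), a call kept in all 20 alternative fits. The log2 fold change after DSS in TG was 1.27 ± 0.21, that of untreated TG against WT was 1.07 ± 0.21, and the difference between the 2 DSS effects was -1.17 ± 0.31, as descriptions. Beside it, 9 macrophage and monocyte markers summed to 124 to 138 CPM in TG and 150 to 173 CPM in WT after DSS. In untreated tissue they summed to 62.7 to 67.6 CPM in TG and 46.5 to 60.5 CPM in WT. Cd14 held most of that sum, at 80.4 and 96.5 CPM in TG and 124 and 120 CPM in WT after DSS. In untreated tissue Cd14 was at 38.9 to 53.3 CPM in TG and 30.9 to 38.3 CPM in WT. In untreated TG against WT, Cd14, Lyz2, Itgam and Adgre1 had log2 fold changes above 0, and Csf1r, Cd68, C1qa and C1qb below 0. The part of these markers in the level of Pla2g5 was not tested.

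The count of Pla2g5 has 1 open point, which concerns its longer transcript. The span of the gene, chr4:138799247-138863562 on the minus strand, contains Pla2g2a at chr4:138831857-138835189 on the plus strand. The sources used here do not say whether counting used strand. The shorter transcript, the closer to the deposited length, lies at chr4:138799244-138819255 and does not reach Pla2g2a. Pla2g2a, the secreted group IIA enzyme, is annotated as a transcribed pseudogene in this C57BL/6 genome. It was at 15.6 and 47.7 CPM in TG after DSS, 20.1 and 33.5 CPM in WT after DSS, 4.77 to 6.02 CPM in untreated TG and 2.03 to 2.62 CPM in untreated WT. Of the genes on either side of that cluster, Otud3 was between 13.4 and 18.9 CPM and Ubxn10 between 4.46 and 6.91 CPM in all libraries.

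Pla2g10 and Pla2g12a did not pass the test in WT after DSS. Pla2g10 encodes the secreted group X enzyme. It was at 80.4 and 87.5 CPM in TG after DSS, 76.4 and 63.1 CPM in WT after DSS, 86.4, 87.5 and 71.6 CPM in untreated TG, and 76.4, 71.3 and 74.3 CPM in untreated WT. All 10 libraries lay within 63.1 to 87.5 CPM. The log2 fold change of DSS against untreated in WT was -0.09 ± 0.13 (adjusted p = 0.684, edgeR). A long noncoding RNA on the other strand, Pla2g10os, overlaps Pla2g10 and was at 2.07 to 5.35 CPM over the libraries, so reads of the pair could not be told apart if counting ignored strand. Pla2g12a, which encodes the group XIIA enzyme, was at 10.8 and 11.8 CPM in TG after DSS, 6.67 and 9.34 CPM in WT after DSS, 14.1, 12.9 and 10.4 CPM in untreated TG, and 9.44, 7.08 and 10.1 CPM in untreated WT. TG libraries were above WT libraries in both states, with log2 fold changes of 0.50 ± 0.24 after DSS and 0.49 ± 0.19 in untreated tissue, as descriptions. DSS against untreated gave -0.15 ± 0.22 in WT (adjusted p = 0.692, edgeR).

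Pla2g6 and Pla2g15 were, apart from Pla2g4c, the lowest of the genes per length in 3 of the 4 groups. Pla2g6 encodes the calcium-independent group VI enzyme, known for phospholipid remodelling. It was at 13.6 and 15.6 CPM in TG after DSS, 12.6 and 13.2 CPM in WT after DSS, 16.2, 10.6 and 13.1 CPM in untreated TG, and 12.6, 14.0 and 13.3 CPM in untreated WT. Its groups overlapped except TG and WT after DSS, and DSS against untreated in WT gave a log2 fold change of -0.04 ± 0.18 (adjusted p = 0.895, edgeR). Pla2g15, the lysosomal enzyme, was at 8.73 and 7.14 CPM in TG after DSS, 4.90 and 5.88 CPM in WT after DSS, 6.39 to 7.21 CPM in untreated TG and 5.53 to 6.39 CPM in untreated WT. Both TG libraries after DSS were above both WT libraries, with a log2 fold change of 0.56 ± 0.20, and DSS against untreated in WT gave -0.13 ± 0.18 (adjusted p = 0.666, edgeR).

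**Figure D4:**
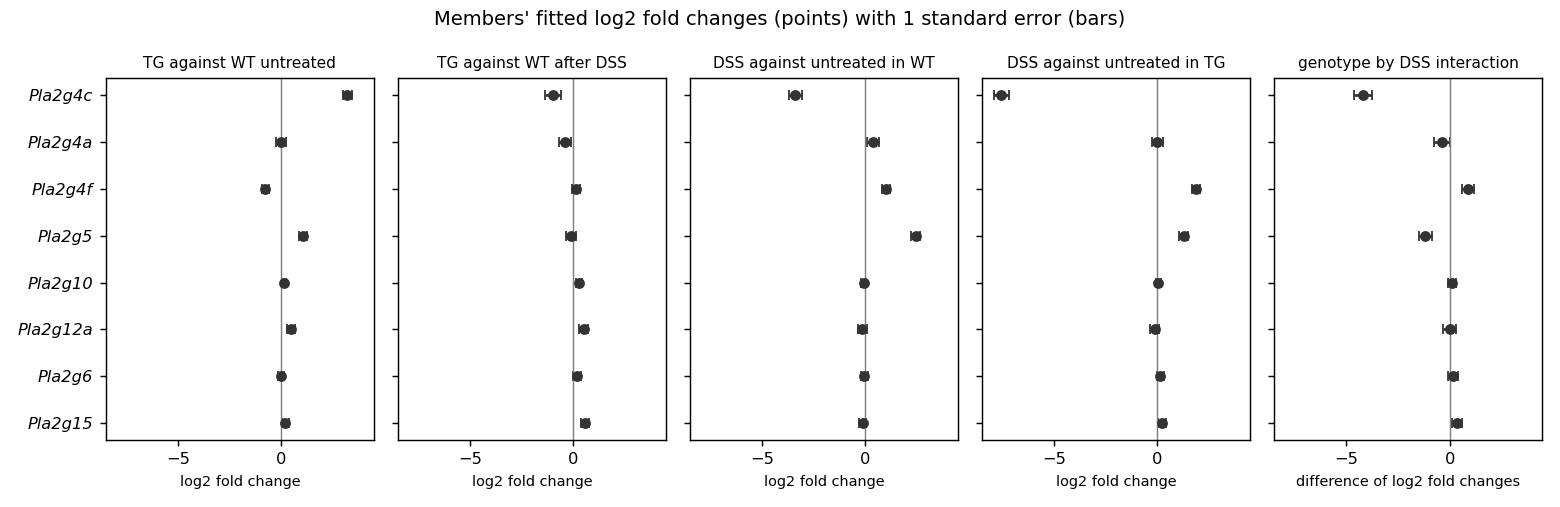
Fitted log2 fold changes of the 8 genes (points, x axis) with 1 standard error (bars) in 5 comparisons, the last being the difference between the DSS effects in TG and WT. Pla2g4c reaches 3.21 in untreated TG against WT and -7.58 in TG after DSS, Pla2g5 and Pla2g4f lie right of 0 after DSS in both genotypes, and the values of the other 5 lie between -0.39 and 0.56.

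Read against all genes, of the members other than Pla2g4c, 2 passed the test in WT after DSS, Pla2g5 and Pla2g4f, both higher. Of 14072 genes 19.8% passed it (10.2% higher and 9.62% lower). Pla2g4c was lower there, but it was chosen for its pattern, so its value is a description and is not counted. With Pla2g4c included, 4 of 8 members had libraries that did not overlap, as did 57.4% of genes. In the comparisons that chose the members nothing is read from the counts, which follow. In untreated TG against WT 2 of 8 were called, both higher, where 3.7% of all genes were (2.26% higher, 1.44% lower). In TG against WT after DSS 0 of 8 were called by edgeR (0.185% of all genes, 0.178% higher and 0.00711% lower). There 2 had an unadjusted p under 0.05 and DESeq2 called 0, and the share of all genes on either measure is not given here. In TG after DSS against untreated 3 of 8 were called, 2 higher and 1 lower (5.48%, with 3.33% higher and 2.15% lower). For the difference between DSS effects 1 of 8 was called, lower (0.846%, with 0.526% higher and 0.32% lower). That 1 was Pla2g4c, so no test is read from it. Libraries did not overlap for 4 of 8 members in untreated TG against WT (32% of all genes), 6 of 8 after DSS (43.2%) and 3 of 8 in TG after DSS against untreated (35.1%).

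Genes around phospholipase A2 were taken as 4 lists of 105 genes: other phospholipase A2 genes, prostanoid genes, lipoxygenase and leukotriene genes, and genes of fatty acid reacylation, desaturation and lysophospholipids. Of these, 103 were listed and 81 tested. In untreated TG against WT, 4 rose and 1 fell, against 3.7% of all genes called in either direction, and the median log2 fold change of the 81 was -0.02, as it was over all genes tested (-0.02). In TG against WT after DSS none was called by edgeR, where 0.185% of all genes were. An unadjusted p under 0.05 was found for 16, and DESeq2 called 5. The share of all genes on either measure is not given here, so nothing is read from those counts. Without the first untreated TG library edgeR called 2. In WT after DSS against untreated, 8 rose and 11 fell (19.8% of all genes called, medians 0.03 for the 81 and 0.00 for all), and in TG after DSS against untreated, 6 rose and 3 fell (5.48% called, medians 0.09 and 0.01). The difference between the DSS effects passed the test in 1 gene (0.846% of all genes called), in 0 without either TG library after DSS, the second WT library after DSS or the first untreated WT library, in 2 without the second untreated WT library, in 4 (2 higher, 2 lower) without the first WT library after DSS, and in 3 higher and 2 lower without the first untreated TG library. Without the first untreated TG library the counts were 14 higher and 16 lower in WT after DSS, and 9 higher and 8 lower in TG after DSS. Without the second WT library after DSS the count lower in WT was 2, without the first it was 7, and without any single untreated WT library it was 7. In TG after DSS, the count higher was 2 without the second TG library after DSS and 3 without the first, and 3 without the third untreated TG or the first untreated WT library, or 4 without the second untreated WT library. The count lower in TG was 1 without the second TG library after DSS. The 4 called higher in untreated TG were 0 without any single untreated WT library, 1 without the second untreated TG library and 2 without the third. The 1 called lower there was lost without any single untreated WT library, the second untreated TG library or either TG library after DSS.

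**Figure D5:**
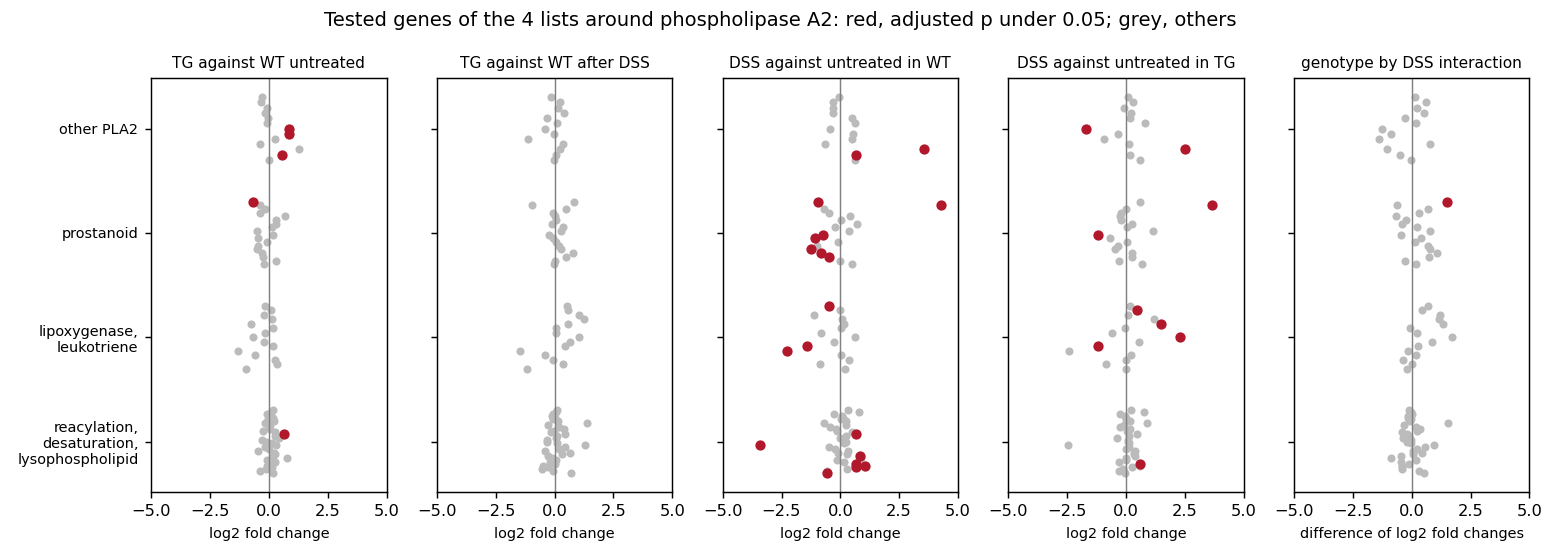
Log2 fold changes (x axis) of the 81 tested genes of the 4 lists (rows) in the 5 comparisons, 1 point per gene, red where the edgeR adjusted p was under 0.05 and grey elsewhere. The comparison in WT after DSS has the most red points, 8 right of 0 and 11 left of it, and the comparison of TG with WT after DSS has none.

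Among the other phospholipase A2 genes, 3 of 13 tested were called higher in untreated TG, where 2.26% of all genes were. The median log2 fold change of the 13 there was -0.04. Pla2g2a rose after DSS in both genotypes. Pla2g2f, a secreted enzyme of the same chromosome 4 cluster as Pla2g5, was at 51.6, 51.9 and 40.7 CPM in untreated TG and 30.1, 23.1 and 26.4 CPM in untreated WT (log2 fold change 0.86 ± 0.16, edgeR adjusted p = 0.0228), a call lost without any single untreated WT library (adjusted p 0.0617 to 0.112) or the second untreated TG library (0.0837). Pla2g3, the secreted group III enzyme, was at 32.4, 24.9 and 27.0 CPM in untreated TG and 11.5, 17.7 and 17.2 CPM in untreated WT (0.86 ± 0.21, adjusted p = 0.0496), a call lost in 16 of 20 alternative fits, among them those without any single untreated library (adjusted p 0.0718 to 0.166) or either WT library after DSS (0.0556 and 0.0576). Pla2g16, an adipose phospholipase A, was at 76.5, 88.4 and 66.8 CPM in untreated TG and 47.4, 56.7 and 52.1 CPM in untreated WT (0.57 ± 0.13, adjusted p = 0.048), a call lost in 15 of 20, among them those without any single untreated WT library, the second or the third untreated TG library or either TG library after DSS (adjusted p 0.0531 to 0.187). In each of the 3, all untreated TG libraries were above all untreated WT libraries. After DSS, Pla2g2a rose 5.70-fold in TG (2.51 ± 0.39, adjusted p = 0.0054), a log2 fold change of 1.49 without the second TG library after DSS and 3.10 without the first, and 11.8-fold in WT (3.56 ± 0.42, adjusted p = 0.000624). Pla2g16 rose in WT after DSS (0.66 ± 0.15, adjusted p = 0.014), with adjusted p of 0.078 without the first WT library after DSS and 0.0594 without the first untreated WT library. Pla2g3 fell in TG after DSS, to 10.5 and 6.61 CPM (-1.72 ± 0.25, adjusted p = 0.00342), and missed the threshold without the second TG library after DSS (adjusted p = 0.0523).

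Downstream of arachidonic acid release, Ptgs2 rose after DSS. In WT after DSS 6 of 18 tested prostanoid genes fell, where 9.62% of all genes did. Ptgs2, the inducible cyclooxygenase, was at 2.75 and 2.46 CPM in TG after DSS, 7.38 and 2.92 CPM in WT after DSS, 0, 0.413 and 0.186 CPM in untreated TG, and 0.234, 0.357 and 0.184 CPM in untreated WT. All libraries after DSS were above all untreated ones, at low counts. Its log2 fold change was 3.65 ± 0.68 in TG (adjusted p = 0.013) and 4.27 ± 0.63 in WT (adjusted p = 0.00205, edgeR), and the call in TG was lost without either TG library after DSS or the third untreated TG library (adjusted p 0.053 to 0.0773). Its value in TG was 3.08 without the first and 4.73 without the second untreated TG library, and in WT it was 3.46 without the first and 4.79 without the second WT library after DSS. On the log2 FPKM scale with a pseudocount of 1 and no filter it was 0.57 in TG, where the call was lost, and 0.98 in WT. Beside it, the neutrophil marker Ly6g was at 159 to 235 CPM in TG after DSS, 103 to 120 CPM in WT after DSS, 23.5 to 33.6 CPM in untreated TG and 55.6 to 72.0 CPM in untreated WT. The other 6 neutrophil markers summed to 30.9 to 34.4 CPM in TG after DSS, 37.2 to 43.6 CPM in WT after DSS, 5.77 to 6.32 CPM in untreated TG and 6.09 to 7.20 CPM in untreated WT, with the opposite order of TG and WT after DSS. Their part in the level of Ptgs2 was not tested. Ptgs1, the constitutive cyclooxygenase, stayed between 1.18 and 2.02 CPM and was not called by edgeR (adjusted p 0.105 to 0.999 over the 5 comparisons). In WT after DSS 1 of 20 alternative fits called it lower (log2 FPKM with a pseudocount of 1 and no filter, adjusted p = 0.0361). Of the 18 tested prostanoid genes 7 were called in WT after DSS, where 19.8% of all genes were. They were Ptgs2 and, lower, Hpgd, Slco2a1, Ptger3, Ptger4, Cbr1 and Fam213b.

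Hpgd, which breaks down prostaglandins, was at 117 and 73.9 CPM in WT after DSS and 217, 223 and 235 CPM in untreated WT (-1.24 ± 0.29, adjusted p = 0.017, edgeR), a call lost without the second WT library after DSS (adjusted p = 0.145). Ptger4, a receptor of prostaglandin E2, fell in TG after DSS to 26.4 and 23.4 CPM, against 54.3, 55.2 and 61.3 CPM in untreated TG (-1.19 ± 0.17, adjusted p = 0.00298), or adjusted p = 0.0577 without the second TG library after DSS. Ptger3, another such receptor, was at 2.48 and 2.38 CPM in WT after DSS and 4.81, 6.90 and 3.57 CPM in untreated WT (-1.07 ± 0.30, adjusted p = 0.031), a call lost without the first or the second untreated WT library or either WT library after DSS (adjusted p 0.0662 to 0.168). Slco2a1, which carries prostaglandins into cells, was at 75.0 and 79.0 CPM in TG after DSS, 49.0 and 38.3 CPM in WT after DSS, 45.9, 48.6 and 60.8 CPM in untreated TG, and 86.2, 91.1 and 73.6 CPM in untreated WT. TG was above WT after DSS and below it in untreated tissue, without overlap in either. Slco2a1 fell in untreated TG against WT (-0.69 ± 0.14, adjusted p = 0.0297) and in WT after DSS (-0.94 ± 0.16, adjusted p = 0.0048), and the difference between the DSS effects passed the test (1.51 ± 0.23, adjusted p = 0.0205, edgeR). The call in untreated tissue was lost without any single untreated WT library, the second untreated TG library or either TG library after DSS (adjusted p 0.0514 to 0.118). That of the difference was lost without either TG library after DSS, the second WT library after DSS or the first untreated WT library (adjusted p 0.0535 to 0.0954).

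Lipoxygenase and leukotriene genes had no edgeR call between TG and WT in either state. After DSS 5 of 15 had an unadjusted p under 0.05 and DESeq2 called 2, and in untreated tissue 2 had one and DESeq2 called 0. The share of all genes on either measure is not given here, so nothing is read from these counts. Alox5, the 5-lipoxygenase, was at 1.99 and 2.05 CPM in TG after DSS, 1.89 and 1.24 CPM in WT after DSS, 3.34, 4.31 and 3.22 CPM in untreated TG, and 2.81, 3.15 and 2.52 CPM in untreated WT. After DSS it was below untreated tissue in both genotypes without overlap, and did not pass the test (adjusted p = 0.1001 in TG and 0.0512 in WT, edgeR). In WT it was called lower in 5 of 20 alternative fits (adjusted p 0.0367 to 0.0475), 2 of them without the first WT library after DSS and without the first untreated TG library. The summed tuft cell markers, given above, were also lower after DSS in both genotypes, but not every marker was. By edgeR, 4 of 6 tested markers were called lower in WT (9.62% of all genes) and 2 of 6 in TG (2.15%). Hpgds and Alox5ap, both on that list, were called in neither. The part of these markers in the level of Alox5 was not tested. Alox5ap, the helper of Alox5, was between 1.64 and 3.07 CPM and passed no test (adjusted p 0.43 to 0.995). Its log2 fold change after DSS was 0.36 ± 0.29 in WT and 0.0072 ± 0.29 in TG. Dpep1, a dipeptidase that converts leukotriene D4, fell after DSS to 159 and 191 CPM in TG, against 391, 383 and 410 CPM in untreated TG (-1.17 ± 0.18, adjusted p = 0.00546), and to 163 and 99.1 CPM in WT, against 355, 356 and 345 CPM in untreated WT (-1.43 ± 0.19, adjusted p = 0.00108). Its call in TG was lost without the first TG library after DSS (adjusted p = 0.077). Ggt1, a gamma-glutamyltransferase, was at 17.0 and 20.3 CPM in TG after DSS and 3.58 to 3.9 CPM in untreated TG (2.31 ± 0.28, adjusted p = 0.00138, edgeR). Mgst2, a leukotriene C4 synthase, rose in TG after DSS by 0.45 ± 0.11 on the log2 scale (adjusted p = 0.0357), a call lost in 13 of 20 alternative fits, among them those without either TG library after DSS, any single untreated WT library or the third untreated TG library (adjusted p 0.0573 to 0.229). Mgst3, a related transferase, fell in WT after DSS (-0.50 ± 0.13, adjusted p = 0.0212), a call lost without the second WT library after DSS (0.16) or any single untreated WT library (adjusted p 0.0519 to 0.0571).

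Of the 35 tested genes of reacylation, desaturation and lysophospholipids, 1 rose in untreated TG, where 2.26% of all genes did, and in WT after DSS 5 rose, where 10.2% did, and 2 fell (Acsl1 and Lpar3), where 9.62% did. Lpcat4, which puts a fatty acid back onto a lysophospholipid, was at 40.8, 37.1 and 42.4 CPM in untreated TG and 26.8, 24.5 and 25.4 CPM in untreated WT (0.65 ± 0.11, adjusted p = 0.0165, edgeR), a call lost without any single untreated WT library (adjusted p 0.0617 to 0.091). In WT after DSS, Anxa1, a lipid-binding protein known as an inhibitor of phospholipase A2 activity, was at 212 and 227 CPM, against 109, 98.7 and 115 CPM in untreated WT (1.03 ± 0.20, adjusted p = 0.00802). Fads2, a fatty acid desaturase, rose by 0.84 ± 0.19 (adjusted p = 0.0136) and Acsl5, an acyl-CoA synthetase, by 0.67 ± 0.12 (adjusted p = 0.00448) on the log2 scale in WT after DSS. Anxa2, an annexin that binds S100a10, rose after DSS in TG (0.58 ± 0.13, adjusted p = 0.0263) and in WT (0.68 ± 0.13, adjusted p = 0.00612), and the call in TG was lost without the second TG library after DSS or the second or the third untreated TG or first untreated WT library (adjusted p 0.0507 to 0.295). The call of Fads2 was lost without either WT library after DSS (adjusted p 0.0507 and 0.0605), and that of Anxa1 without the second (0.0531).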

How the data were processed

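RNA from intestinal tissue was measured in 10 libraries: 2 TG and 2 WT after DSS, and 3 TG and 3 WT untreated. The authors deposited 1 table per library with expected counts, transcript lengths and FPKM values per gene, per the file headers. The submitters' processing notes list RSEM 1.2.12, Bowtie2 2.2.5 and HISAT2 2.0.4, without their roles, and the mm10 build, and the strand used in counting is not given in the sources used here. Expected counts were rounded to whole numbers and scaled by TMM. Genes passed edgeR's filter at a minimum count of 10 and a minimum total of 15, which left 14072. The quasi-likelihood test (edgeR 4.0.16, R 4.3.3) was fitted with 1 mean per group over all 10 libraries, with 6 residual degrees of freedom, and p-values were adjusted by Benjamini-Hochberg over all genes tested, at 0.05. CPM values are scaled by TMM. Alternatives used DESeq2 1.42.0, and limma 3.58.1 on log2 of the deposited FPKM plus a pseudocount of 1 or 0.1. The fit was tested on simulated data.

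The 8 genes and all gene and marker lists were chosen with earlier results of these data known. Beside the 8 genes and the 8 most like Pla2g4c, the text names up to 4 called genes per list and comparison by size of log2 fold change, where the mean reached 1 CPM, and follows Ptgs1, Ptgs2, Alox5 and Alox5ap in every comparison. A gene that this rule names is not reported here. Other called genes are named as such after their values were seen. No 2 replicates agreed within sampling noise (chi-square per gene of 9.98 to 65.1), so each was counted as 1 sample. Marker genes of each cell type named in the text were summed as CPM.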

Additional observations from a re-analysis of the deposited data

Results flagged for a closer look

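In both results flagged here DSS and sex cannot be told apart, by Xist and Kdm5d. Pla2g4c stood on opposite sides in the comparison of TG with WT. After DSS both TG libraries (1.93 and 1.58 CPM) were below both WT libraries (3.66 and 3.24 CPM), while in untreated tissue all TG libraries (291 to 385 CPM) were above all WT libraries (24.7 to 50.1 CPM). The values after DSS rest on 33 and 27 counts in TG and 62 and 60 in WT. EdgeR did not call Pla2g4c there, and 43.2% of all genes had libraries that did not overlap in that comparison. The difference between the DSS effects was -4.18 ± 0.44 on the log2 scale. No test is read from it, since the gene was chosen for this pattern.

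Slco2a1, the prostaglandin transporter, had the opposite order. After DSS both TG libraries (75.0 and 79.0 CPM) were above both WT libraries (49.0 and 38.3 CPM), while in untreated tissue the TG libraries (45.9 to 60.8 CPM) were below the WT libraries (73.6 to 91.1 CPM). The difference between the DSS effects was 1.51 ± 0.23 on the log2 scale (adjusted p = 0.0205, edgeR), and its adjusted p was over the threshold, up to 0.0954, in 4 of the 10 fits that left out 1 library.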

How the results depend on the processing

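Pla2g4c kept its direction in all 5 comparisons under all alternatives. On the log2 FPKM scale with a pseudocount of 1, with or without a filter, its log2 fold change was -0.44 for TG against WT after DSS, -6.04 in TG and -2.54 in WT after DSS, and -3.50 for the difference between them, and with a pseudocount of 0.1 it was -7.37 in TG. Pathway genes called higher in untreated TG were 2 under total count scaling, a filter of 1 CPM in 5 libraries and either pseudocount, and 1 on log2 FPKM with no filter. DESeq2 called 5 higher in TG against WT after DSS, 13 higher in WT after DSS, and 5 higher and 1 lower for the difference between DSS effects. That difference gave 2 higher under total count scaling and either pseudocount. In TG after DSS, 3 were called higher with only the groups compared or either pseudocount. Deviations of same-numbered replicates from their group means correlated at -0.29 to 0.206. Both pairs after DSS had 0.206, and no other pair was over 0.1. Those 2 values are 1 value, since deviations in a group of 2 mirror each other. With groups of 2 or 3 this check cannot exclude pairing, and the main fit did not pair the libraries. With the replicate number as a block, untreated TG had 1 higher and 0 lower, WT after DSS 5 lower, TG after DSS 2 higher and the difference 0 higher. Leaving out 1 library at a time gave 0 to 5 higher and 0 to 1 lower in untreated TG, 0 to 3 higher for TG against WT after DSS, 7 to 14 higher and 2 to 16 lower in WT after DSS, 2 to 9 higher and 1 to 8 lower in TG after DSS, and 0 to 3 higher and 0 to 2 lower for the difference. Genes with log2 fold changes near 0 changed sign. In TG after DSS, Ptgs1 was -0.0020 (DESeq2), -0.0023 (its size factors), -0.0586 (total count), -0.0136 (only the groups compared) and -0.0168 (FPKM, no filter). There Alox5ap was -0.0519 (total count), -0.0451 (replicate block), -0.0505 (pseudocount 1 with or without a filter), -0.0684 (pseudocount 0.1) and -0.0067 (only the groups compared), and Alox5 had a difference between DSS effects of -0.0288 with a pseudocount of 1 (with or without a filter). With 1 library left out, Ptgs2 ranged from -1.45 to 0.21 in untreated TG and -1.19 to 0.47 for the difference, Alox5 from -0.26 to 0.34 for the difference, and Ptgs1 from -0.10 to 0.14 in TG after DSS. Alox5ap ranged from -0.44 to 0.38 in TG against WT after DSS, -0.11 to 0.0903 in TG and -0.10 to 0.72 in WT after DSS, and -0.72 to 0.11 for the difference. In WT after DSS, Pla2g10 ranged from -0.23 to 0.0414 and Pla2g12a from -0.41 to 0.0780. The cause of these moves was not tested. With 2 libraries in each group after DSS, small changes may be missed. Ptgs2, Alox5, Alox5ap and, after DSS, Pla2g4c rest on few counts.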
